A study of Mus musculus with 6 samples.

Results

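This report covers the mature miRNAs encoded inside the Hox gene clusters, namely miR-10a, miR-10b, miR-196a, miR-196b and miR-615. They were picked out by name, as the rows of the deposited small RNA count table whose names start with 1 of these 5 miRNAs. The set was chosen with earlier results of these data known. There were 8 such miRNAs among the 1364 in the table: miR-10a-5p, miR-10a-3p, miR-10b-5p, miR-10b-3p, miR-196a-5p, miR-196a-1-3p, miR-196b-5p and miR-615-3p. In the nucleus accumbens (NAc), only miR-10a-5p and miR-10b-5p were measured above a few reads, and neither met the criteria for a difference between morphine-trained and saline-trained mice. The pair behaved differently from library to library. miR-10a-5p lay between 44.7 and 68.3 CPM (counts per M counts, after normalization) in all 6 libraries, whereas miR-10b-5p ranged from 2.94 to 56.1 CPM.

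The libraries came from the NAc, a forebrain region of the reward circuit, of adult male C57BL/6N mice aged 7 to 8 weeks at purchase, with no transgene or deletion named. Mice were trained for 6 days in conditioned place preference (CPP), in which a drug is paired with 1 of 2 chambers. The morphine group (n = 3 libraries) received 10 mg/kg morphine and, in the alternate daily session, saline at 1 ml/kg, while the saline group (n = 3 libraries) is labelled with saline injection only. Tissue was taken 0.5 h after the preference test on day 7. The design text gives 2 mice per library, while the legend of the study's heatmaps gives 1, so the p-values below measure the spread between these libraries and no more. Total counts ranged from 4183333 to 9842050 per library. At this depth 3 counts, taken as the floor of detection, corresponded to between 0.305 and 0.717 counts per M counts, a limit that covers counting error only.

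Hox genes are transcription factors that give cells their position along the head-to-tail axis, and they are used in the hindbrain, spinal cord and trunk rather than in the forebrain. The miRNAs within the clusters share much of that regional pattern. miR-196 is known for directing cleavage of the Hoxb8 mRNA, and miR-10a and miR-10b for acting on Hox transcripts near their own genes. Low levels in a forebrain dissection are thus the background against which the counts are read. Beyond the nervous system, miR-10a and miR-10b are abundant in several trunk tissues.

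The sequences were matched by name to the RefSeq miRNA table of GRCm38.p6, which held all 8. The 5p forms are shown first because they share seeds, the bases 2 to 8 that pair with target mRNAs, given here in capitals.
miR-10a-5p: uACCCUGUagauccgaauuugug
miR-10b-5p: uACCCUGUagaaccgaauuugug
miR-196a-5p: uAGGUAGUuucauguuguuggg
miR-196b-5p: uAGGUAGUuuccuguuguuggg
miR-615-3p: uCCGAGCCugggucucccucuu
The first and second pairs each share a seed, and miR-615-3p has a seed of its own. Within each pair the mature forms differ at a single base, counted from 1 at the 5′ end: U12A from miR-10a-5p to miR-10b-5p and A12C from miR-196a-5p to miR-196b-5p. That base lies outside the seed. How reads that match both forms with a mismatch were counted is not stated, so the split within a pair is uncertain, and the sum of each pair was tested as well.

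The hairpins of miR-10a and miR-10b are shown with both mature arms in capitals, since almost all reads of the group fell on 1 arm, the first.
Mir10a: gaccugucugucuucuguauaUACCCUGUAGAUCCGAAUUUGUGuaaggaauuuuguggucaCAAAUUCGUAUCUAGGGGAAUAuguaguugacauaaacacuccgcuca
Mir10b: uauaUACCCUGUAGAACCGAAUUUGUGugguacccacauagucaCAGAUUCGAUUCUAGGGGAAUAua
Mir10a is on the plus strand of chromosome 11 of GRCm38, at chr11:96317165-96317274, where it overlaps no other gene of the GENCODE vM21 annotation and lies 993 bases from Hoxb4. Mir10b is on the plus strand at chr2:74726070-74726137, in introns of Hoxd3 and Hoxd4. miR-196a-5p has 2 hairpins. Mir196a-1, at chr11:96265164-96265265, overlaps no other gene and is 51900 bases from Mir10a in the same Hoxb cluster. Mir196a-2, at chr15:102973350-102973434, lies in an intron of an annotated Hoxc5 transcript, between Hoxc10 and Hoxc9. Mir196b, on the minus strand at chr6:52230081-52230165, overlaps an exon of Hoxa9. Mir615, whose arms span chr15:103014926-103014990, is in an intron of Hoxc5. The 4 Hox clusters are therefore all represented. These positions are those of the annotation, and the build used by the authors is not given in the sources used here.

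All 8 miRNAs together took 551, 378 and 460 counts in saline replicates 1, 2 and 3. In morphine replicates 1, 2 and 3 they took 1024, 416 and 502 counts. Expressed per M counts of the library, these were 131.7, 45.4 and 63.8 in the saline group and 104.0, 57.1 and 66.4 in the morphine group. The groups overlapped, and the mean share of all counts did not differ beyond the spread between libraries (0.00803% ± 0.00455 against 0.00758% ± 0.00249, SD, n = 3 each, exact two-sided permutation test, p = 0.9, where 3 libraries against 3 cannot go below 0.1). This difference is small enough that its direction depended on the scaling: with TMM-scaled library sizes the morphine group was higher by 0.00158 percentage points (exact permutation test, p = 0.5). For scale, the 6 miRNAs listed as forebrain neuron markers summed to between 130750 and 273950 CPM in every library, mostly from miR-9-5p and miR-128-3p. Of these 6, 1 met the study's criteria for a difference, against 19.4% of all miRNAs tested, and that 1 was miR-124-3p. Its mean was 5796 CPM with saline and 1569 CPM with morphine (log2 fold change -1.88, edgeR quasi-likelihood test, adjusted p = 0.0195). A miRNA count has no term for length. The 8 mature forms of the group are all 22 or 23 bases long, and the lengths of the marker miRNAs were not looked up.

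Of the 3331 counts in the group, 3305 belonged to miR-10a-5p and miR-10b-5p and 26 to the other 6 miRNAs.

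**Figure D1:**
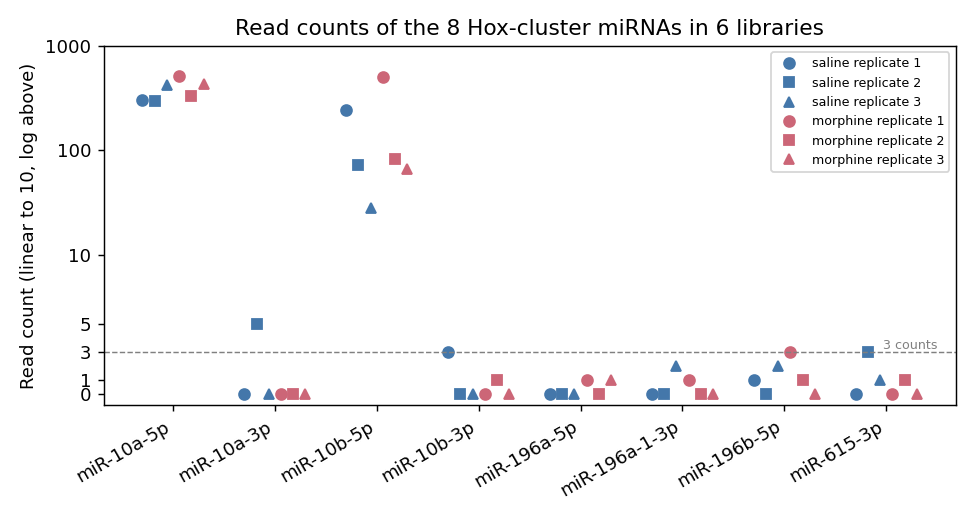
Read counts of the 8 Hox-cluster miRNAs in each of the 6 libraries (vertical axis linear to 10 counts and logarithmic above, blue for saline and red for morphine, with the marker shape giving the replicate). miR-10a-5p and miR-10b-5p had between 28 and 512 counts per library, and all other points lie at 5 counts or fewer, with the dashed line at 3 counts.

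In the edgeR quasi-likelihood fit of the whole table, 0 of the 8 met the study's criteria for a DEmiRNA, a |log2 fold change| of at least 0.58 with an unadjusted p of at most 0.05. Of all miRNAs tested, 19.4% met these criteria. At a Benjamini-Hochberg adjusted p under 0.05 the number was also 0 of 8, against 5.21% of all miRNAs. No member had an unadjusted p under 0.05 in edgeR (0 of 8) or in the Wald test of DESeq2 (0 of 8). The share of all miRNAs at that p alone was not computed. By the study's criteria, DESeq2 called 0 of the 8 members and 235 of the 1364 miRNAs. Likewise the 2 groups were fully separated in CPM for 0 of 8, against 22.1% of all miRNAs. Since 5 of the 8 had at most 3 counts in every library, these counts mainly describe miR-10a-5p and miR-10b-5p.

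miR-10a-5p, the mature strand of the Hoxb4-linked hairpin, was the most abundant of the group. Saline replicates 1, 2 and 3 held 305, 298 and 427 of its reads, and morphine replicates 1, 2 and 3 held 512, 330 and 435. The normalized levels were 55.8, 44.7 and 44.8 CPM in the saline group and 56.6, 48.4 and 68.3 CPM in the morphine group. The groups overlapped, with saline replicate 1 above morphine replicate 2. Mean levels were 48.4 ± 6.40 CPM with saline and 57.8 ± 10.03 CPM with morphine (SD, n = 3 each). The corresponding log2 fold change of 0.25 had an SE of 0.49 (edgeR quasi-likelihood test, adjusted p = 0.788). Its 95% interval ran from -0.76 to 1.27, so these libraries leave room for a change of up to 2.41-fold upwards or to 0.591 of the saline level. The direction depended on the scaling, as library totals gave -0.12 on the log2 scale. By count, miR-10a-5p ranked between position 230 and position 268 of 1364 in all libraries.

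miR-10b-5p, its Hoxd-cluster counterpart with the same seed, was far less even. Its reads numbered 242, 72 and 28 in saline replicates 1, 2 and 3, and 507, 83 and 66 in the morphine replicates in the same order. Normalized, this was 44.3, 10.8 and 2.94 CPM in the saline group and 56.1, 12.2 and 10.4 CPM in the morphine group. Saline replicate 1 and morphine replicate 1 were both high, and the other 4 libraries were at 12.2 CPM or lower. Mean levels were 19.3 ± 22.0 CPM with saline and 26.2 ± 25.9 CPM with morphine (SD, n = 3 each). The log2 fold change of 0.45 (SE 0.76, 95% interval -1.13 to 2.02) did not meet the criteria (edgeR quasi-likelihood test, adjusted p = 0.755). Its rank by count moved between position 246 and position 475 of 1364.

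**Figure D2:**
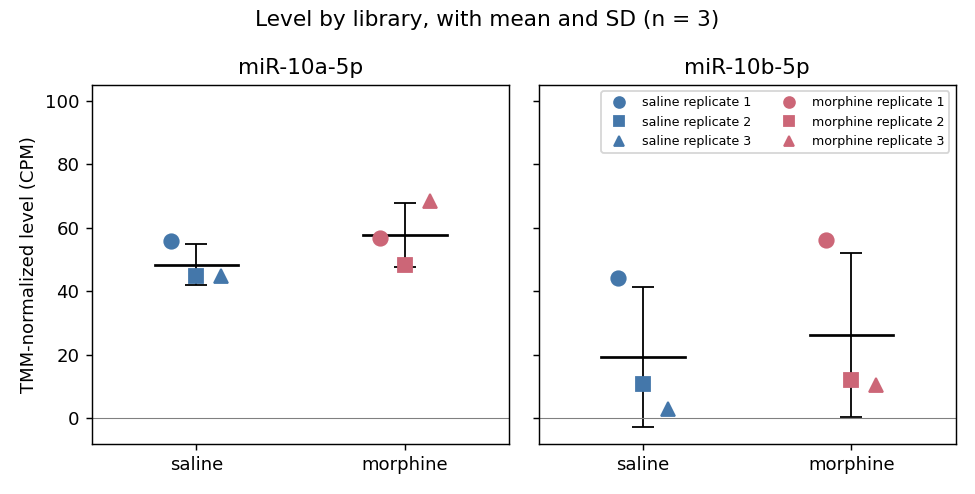
TMM-normalized levels (CPM) of miR-10a-5p and miR-10b-5p in the saline (blue) and morphine (red) libraries, with marker shapes for replicates and black bars for the group mean and SD (n = 3). miR-10a-5p stays between 44.7 and 68.3 CPM, while miR-10b-5p has 1 high library in each group, at 44.3 and 56.1 CPM.

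The result for miR-10b-5p rested on single libraries. Leaving out saline replicate 1 gave a log2 fold change of 2.02 (SE 0.69; edgeR quasi-likelihood test, adjusted p = 0.0498), which met the study's criteria. In that fit the saline libraries were at 9.73 and 2.70 CPM and the morphine libraries at 52.9, 12.6 and 9.84 CPM, so the groups were separated by the step from 9.73 to 9.84 CPM. Without morphine replicate 1 the log2 fold change was -0.69, and without saline replicate 3 it was -0.04, both in the opposite direction to the fit of all 6 libraries. Over all 17 alternative fits the adjusted p of miR-10b-5p ranged from 0.0498 to 1. Over the table as a whole, saline replicate 2 was closer to the morphine libraries than to the other saline libraries. Its Spearman correlations of log2(CPM + 1) over 899 miRNAs were 0.869 and 0.874 to saline replicates 1 and 3. To the morphine libraries they were 0.907 to 0.926. Saline replicate 2 mattered less here. When it was left out, the log2 fold changes were 0.18 for miR-10b-5p and 0.20 for miR-10a-5p. For miR-10a-5p the fits that left out 1 library gave log2 fold changes between 0.12 and 0.46, and none met the criteria.

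**Figure D3:**
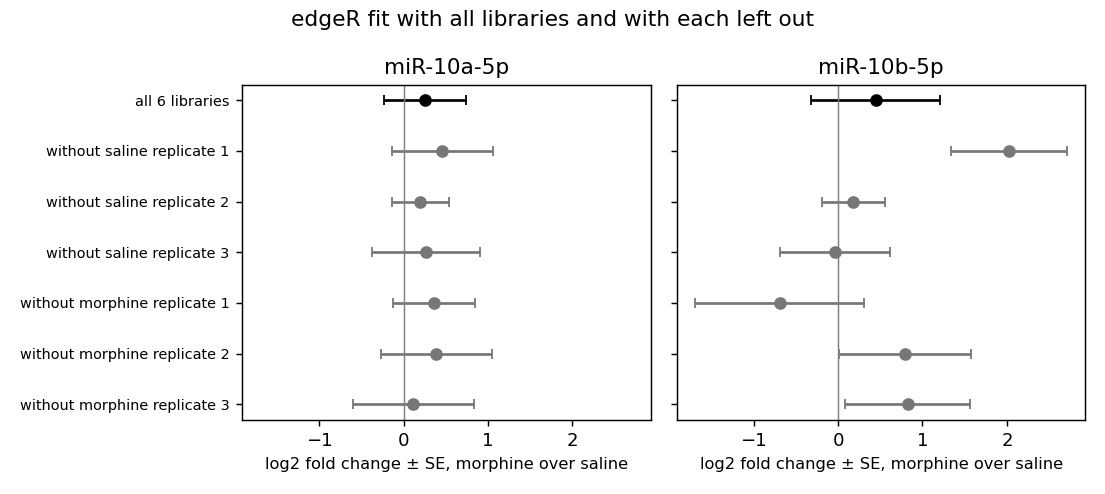
Log2 fold change of morphine over saline with its SE (horizontal axis) for miR-10a-5p and miR-10b-5p, from edgeR fits with all 6 libraries and with each library left out. The values for miR-10a-5p lie between 0.12 and 0.46, and those for miR-10b-5p between -0.69 and 2.02, the highest being without saline replicate 1.

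The unequal spread of the pair was described by the SD of log2(CPM + 0.5) within groups, computed for each of the 544 miRNAs that reached 100 counts in total. It was 0.22 for miR-10a-5p and 1.61 for miR-10b-5p, with a median of 0.64 over the 544. A smaller SD than that of miR-10a-5p was found for 6.8% of the 544, and a smaller SD than that of miR-10b-5p for 95.8%. Among the 125 of these miRNAs whose mean level was within 1 log2 unit of that of miR-10b-5p, itself included, 122 had a smaller SD. Under 3 other scalings the SD of miR-10a-5p was 0.24 to 0.39, with 9.01% to 19.9% of miRNAs below it, and that of miR-10b-5p was 1.58 to 1.66, with 96.3% to 98.2% below it. These shares are descriptions and carry no test.

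Because both miRNAs were read from the same libraries, their ratio does not depend on scaling. Of the reads assigned to the 2 miR-10 5p forms, miR-10b-5p held 44.2% in saline replicate 1 (242 of 547, 95% Wilson interval 40.1% to 48.4%). In saline replicate 2 it held 19.5% (72 of 370, 15.7% to 23.8%), and in saline replicate 3 6.15% (28 of 455, 4.29% to 8.75%). In the morphine group it held 49.8% in replicate 1 (507 of 1019, 46.7% to 52.8%), 20.1% in replicate 2 (83 of 413, 16.5% to 24.2%) and 13.2% in replicate 3 (66 of 501, 10.5% to 16.4%). Within each group the interval of replicate 1 lay apart from those of the other libraries, so counting error does not cover the spread. Between the groups the share was 23.3% ± 19.3 against 27.7% ± 19.4 (SD, n = 3 each), a difference of 4.39 percentage points that was smaller than the spread within either group (exact two-sided permutation test, p = 0.7). Both libraries numbered 1 had the highest share, but the sample records do not say that equal numbers mark a shared batch, day or litter.

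**Figure D4:**
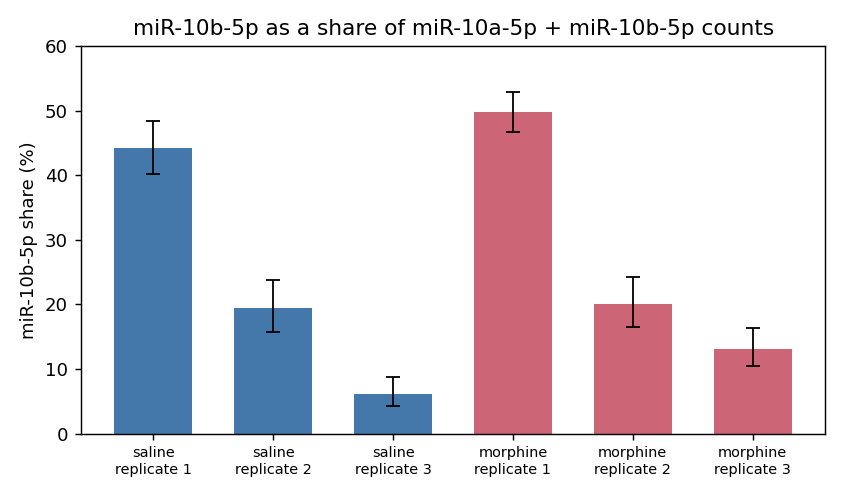
Share of miR-10b-5p in the summed counts of miR-10a-5p and miR-10b-5p (percent) for each library, with 95% Wilson intervals that cover counting error only. Saline replicate 1 and morphine replicate 1 are at 44.2% and 49.8%, and the other 4 libraries are between 6.15% and 20.1%.

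Summed to a single row, the miR-10 5p forms reached 547, 370 and 455 counts with saline and 1019, 413 and 501 with morphine. Mean levels were 67.9 ± 28.3 CPM and 83.8 ± 26.0 CPM, respectively (SD, n = 3 each), with overlapping libraries. The sum had a log2 fold change of 0.30 (SE 0.51, 95% interval -0.74 to 1.35; edgeR quasi-likelihood test, adjusted p = 0.745). The sum did not meet the criteria in this fit or in any of its 17 alternatives.

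The opposite arms of these hairpins were close to absent. miR-10a-3p had 5 counts in saline replicate 2 and 0 in the other 5 libraries, beside 2307 counts of miR-10a-5p over all libraries. miR-10b-3p had 3 counts in saline replicate 1 and 1 in morphine replicate 2, beside 998 counts of miR-10b-5p. The 5p arm thus held nearly all reads of both hairpins. A fold change was not given for either 3p form, since the level in each group was under or near the 3 counts per library that set the floor.

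miR-196a-5p, which is made from both the Hoxb and the Hoxc cluster, was at 0 counts throughout the saline group, and morphine replicates 1, 2 and 3 had 1, 0 and 1 counts. The passenger strand miR-196a-1-3p had 2 counts in saline replicate 3 and 1 in morphine replicate 1. miR-196b-5p, of the Hoxa cluster, had 1, 0 and 2 counts with saline and 3, 1 and 0 with morphine. A count of 0 allows a level of up to 0.549 CPM in saline replicate 1 and of up to 0.315 to 0.471 CPM in the other libraries, after TMM scaling, so these miRNAs were not detectable at this depth rather than shown to be missing. The sum of miR-196a-5p and miR-196b-5p was 1, 0 and 2 counts against 4, 1 and 1 (unadjusted p = 0.561, edgeR's quasi-likelihood test), too few for a fold change.

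miR-615-3p, from the intron of Hoxc5, had 0, 3 and 1 counts with saline and 0, 1 and 0 with morphine. No library exceeded the floor of 3 counts, and no fold change was given. The miR-196 and miR-615 miRNAs, from the Hoxa, Hoxb and Hoxc clusters, were therefore at or near the limit of detection in both groups. By contrast, miR-10a-5p and miR-10b-5p were detected in all 6 libraries.

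The miRNAs outside the Hox clusters whose levels most resembled those of miR-10b-5p were miR-200c-3p, miR-345-3p and miR-96-5p. Pearson's correlation of log2(CPM + 0.5) over the 6 libraries was 0.984, 0.899 and 0.863, the highest among 620 miRNAs with a miRBase name and at least 50 counts. Values picked as the highest of so many over 6 libraries are high by selection and carry no test. miR-200c-3p, a member of an epithelial miRNA family, was at 13.0, 4.05 and 1.99 CPM with saline and at 15.9, 3.81 and 4.24 CPM with morphine. Like miR-10b-5p it was high in saline replicate 1 and morphine replicate 1. miR-96-5p, which is encoded with miR-182 and miR-183 and is known from sensory cells, was at 36.6 CPM in morphine replicate 1 and between 0.315 and 6.28 CPM in the other 5 libraries, so it shared the second high library more than the first. Unlike miR-10b-5p, miR-96-5p met the study's criteria (log2 fold change 2.40, edgeR quasi-likelihood test, unadjusted p = 0.0112, adjusted p = 0.1). miR-345-3p varied little, between 10.5 and 16.3 CPM. It had the same 2 highest libraries as miR-10b-5p but not the size of the differences. All points share library, depth and scaling.

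For miR-10a-5p the most similar miRNAs, picked in the same way, were miR-466q, miR-219c-5p and miR-128-3p. Their correlations were 0.984, 0.872 and 0.824 over the same 6 libraries. miR-466q and miR-219c-5p had at most 53 and 17 counts in any library. miR-128-3p, an abundant neuronal miRNA, ranged from 55107 to 104570 CPM. miR-10a-5p and miR-10b-5p correlated with each other at 0.441.

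**Figure D5:**
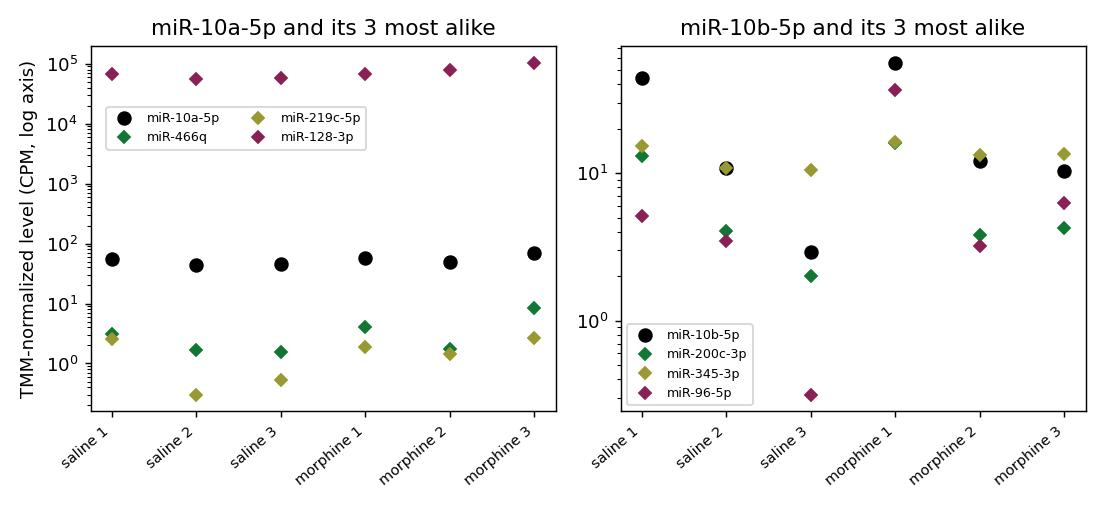
TMM-normalized levels (CPM, log axis) of miR-10a-5p and miR-10b-5p (black circles) and of the 3 miRNAs most like each (coloured diamonds) in the 6 libraries. On the right, miR-10b-5p and miR-200c-3p are both highest in saline replicate 1 and morphine replicate 1, at 44.3 and 56.1 CPM and at 13.0 and 15.9 CPM.

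Since miR-10 and miR-196 are also made outside the forebrain, the miRNA markers of other cell types were set beside these levels. The 9 ependymal and choroid plexus markers summed to 1972 to 2775 CPM in the saline libraries and to 1018 to 1163 CPM in the morphine libraries, mostly from miR-204-5p. Of these 9, 3 were called higher by the study's criteria (miR-200a-3p, miR-200b-3p and miR-429-3p) and 1 lower (miR-204-5p), and only miR-34b-5p was at 0 in any library. miR-200a-3p, a relative of miR-200c-3p, was at 123.2 CPM in morphine replicate 1 but at 9.15 CPM in saline replicate 1, below the 15.3 CPM of saline replicate 2. The 4 endothelial and mural markers summed to 8767 to 23938 CPM in the saline group and 17023 to 29992 CPM in the morphine group. Of the 4, miR-126a-3p was called higher. The others had negative log2 fold changes, at -0.96 (miR-126a-5p), -0.47 (miR-143-3p) and -0.48 (miR-145a-5p). Of the 2 libraries with high miR-10b-5p, saline replicate 1 had the lowest of the 6 endothelial and mural sums and morphine replicate 1 the highest. The 4 skeletal muscle markers summed to 72.9 to 970.8 CPM in the saline group and 444.7 to 555.3 CPM in the morphine group, with 1 of 4 called lower. That 1 was miR-206-3p, at 71.6 CPM in saline replicate 1 and at most 16.2 CPM elsewhere. The other muscle markers had positive log2 fold changes, from 0.27 to 1.17. The 4 erythroid markers summed to 216.4 to 312.3 CPM and to 360.3 to 571.9 CPM, with 1 of 4, miR-451a, called higher. The others had negative log2 fold changes, at -1.31 (miR-144-3p), -1.16 (miR-144-5p) and -0.20 (miR-486a-5p). Of all miRNAs tested, 19.4% met the study's criteria in either direction. miR-144-3p was at 0 in morphine replicate 2. The part of these cell types in the level of miR-10b-5p was not tested, and in tissue RNA more cells of a type and more RNA per cell cannot be told apart.

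The closest relatives of miR-10 outside the Hox clusters are the miR-99 and miR-100 miRNAs with a different seed, and the miR-125 miRNAs often made beside them. Both miR-100-5p and miR-99a-5p are shown for comparison, again with seeds in capitals.
miR-100-5p: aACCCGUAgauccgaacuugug
miR-99a-5p: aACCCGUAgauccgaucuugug
By single-base changes, insertions and deletions, miR-10a-5p is 3 steps from miR-100-5p and 4 steps from miR-99a-5p. miR-99a-5p and miR-100-5p are 1 step apart, so the split of reads between them is uncertain too, and their sum was not tested. The 5 relatives were far more abundant than the Hox-cluster pair, summing to between 36350 and 112780 CPM per library. Unlike miR-10a-5p and miR-10b-5p, 4 of the 5 met the study's criteria, against 19.4% of all 1364 miRNAs tested. Of these 4, 1 was higher (miR-99a-5p) and 3 were lower (miR-99b-5p, miR-125a-5p and miR-125b-5p). The 5 relatives had a median log2 fold change of -1.66, against -0.15 over all 1364 miRNAs. miR-99a-5p rose from 16540, 14354 and 19684 CPM with saline to 72209, 86160 and 94325 CPM with morphine, without overlap. This is a log2 fold change of 2.32 (edgeR quasi-likelihood test, adjusted p = 0.00441). miR-100-5p, which like miR-10a-5p did not meet the criteria, had a log2 fold change of -0.52 (95% interval -1.45 to 0.41). That the relatives and the Hox-cluster pair differ in response was not tested.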

How the data were processed

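Small RNA libraries were made by the authors from 3 μg of total RNA each. The authors removed adapter, poly-N, low-quality and wrongly sized reads, used Bowtie to filter out other RNA classes and repeats, and matched what was left to miRBase. They deposited raw read counts per mature miRNA, not normalized and given separately for each library, and the deposited TPM values equal each count scaled to its library total. The genome build and miRBase release are not given in the sources used here. Groups and replicate numbers came from the sample titles, and 0 columns were unused.

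TMM scaling and a quasi-likelihood test in edgeR 4.0.16 (R 4.3.3) were applied to all 1364 miRNAs, without a covariate, and p-values were adjusted by Benjamini-Hochberg over all of them. CPM values are TMM-scaled. Shares were compared with exact two-sided permutation tests, and intervals are at 95%. Members were named by the name rule, relatives and marker miRNAs from fixed lists, and the 3 most similar miRNAs of each miR-10 5p form by Pearson's correlation. Members and lists were chosen with earlier results of these data known. Alternatives were other scalings, DESeq2 1.42.0, the edgeR exact test, filters, thinning, a replicate block and leaving out each library. The test was checked on simulated data. Libraries with equal replicate numbers were not treated as pairs in the main fit. Their deviations from the group means correlated at -0.20, -0.25 and 0.14 over 899 miRNAs. With 3 libraries per group, these values cannot decide whether equal numbers mark a pair. Positions came from RefSeq (GRCm38.p6) and GENCODE vM21.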

Additional observations from a re-analysis of the deposited data

How the results depend on the processing

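miR-10a-5p kept its direction in 15 of 17 alternatives and did not meet the study's criteria in any. Its log2 fold change was -0.12 with library total scaling and -0.0091 with upper quartile scaling, and 0.12 to 0.46 when 1 library was left out. miR-10b-5p kept its direction in 15 of 17, with log2 fold changes from -0.69 to 2.02 when 1 library was left out. It met the criteria only without saline replicate 1, which moved the number of members called from 0 to 1 by either rule, the study's criteria or an adjusted p under 0.05. The miR-10 5p sum was at -0.071 with library total scaling and otherwise at 0.0027 or above. The miR-196 5p sum had no value under the filters of at least 10 counts in total and filterByExpr, which left 2 of the 8 members. The difference in the share of miR-10b-5p lay between -6.65 and 14.9 percentage points when 1 library was left out. The share of all counts held by the members differed by 0.00171 percentage points without the 10 most abundant miRNAs, by 0.00158 with TMM library sizes, and by -0.00219 to 0.00213 when 1 library was left out, against -0.000446 in the main comparison.

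With the replicate number as a block, the log2 fold change was 0.25 for miR-10a-5p and 0.75 (SE 0.66) for miR-10b-5p, and the block changed no call of a member. Over all miRNAs, 264 met the study's criteria, and 176 to 492 when 1 library was left out, with 492 without saline replicate 2. At an adjusted p under 0.05 the number was 71, against 32 with the block, 28 with at least 10 counts, 110 with miRBase names only, 119 after thinning, 153 and 160 with upper quartile and library total scaling, 156 with DESeq2, and 0 to 386 when 1 library was left out. Depth limits the 6 members with 26 counts in all, for which no fold change was given.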
